A study of Mus musculus with 7 samples.

Results

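Somatostatin (*Sst*), cortistatin (*Cort*) and 4 of their receptors (*Sstr1*, *Sstr2*, *Sstr3* and *Sstr4*) were followed through the snRNA-Seq and ATAC-Seq data of mouse cortex. The 6 genes were chosen by name from 25871 gene columns of the snRNA-Seq tables, and by position from the ATAC-Seq regions. Of 323369 reference regions, 128 overlapped one of these genes or lay within 50 kb of it. When the level of one of these genes was compared between classes of nuclei, that gene was left out of the marker list that defined its own class.

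The study screened 287 gene regulatory elements (GREs), each carried by an adeno-associated virus, for activity in SST interneurons. The snRNA-Seq sample came from the visual cortex of male C57BL/6J mice aged 6 to 10 weeks, injected with the pooled AAV9 library (SST PESCA AAV9). It was run as 10 inDrops libraries in 2 sets of 5, and no label ties a library or a set to an animal. The methods describe 5 libraries from each of 2 animals. The ATAC-Seq samples, 2 each from SST, PV and VIP interneurons, came from whole cortex of uninjected mice labelled male and aged 6 to 12 weeks. These were the F1 offspring of Sst-IRES-Cre, Pv-Cre or Vip-IRES-Cre mice and the SUN1-2xsfGFP-6xMYC line, in which Cre switches on a GFP tag on the nuclear envelope and tagged nuclei are pulled down with an antibody to GFP (INTACT). The methods mention both sexes for these crosses, and 1 animal per sample. All SST samples carried Cre at the *Sst* locus itself, so an effect of that insertion on the *Sst* regions cannot be told apart from the cell type.

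Somatostatin and cortistatin are related peptide transmitters, each cut from a longer precursor. In the cortex somatostatin marks a large class of GABAergic interneurons, many of which target the dendrites of pyramidal cells, and cortistatin is found in scattered interneurons. Both peptides bind the same family of receptors, which couple to inhibitory G proteins, lower cAMP and open GIRK potassium channels, so that receptor-bearing neurons are quieted.

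The snRNA-Seq tables held 47348 barcodes, of which 32335 had more than 200 non-viral UMIs (unique molecular identifiers, each standing for 1 captured RNA molecule) and were kept. The libraries held 2457 to 3629 kept nuclei and 2496224 to 3041931 UMIs each, with median depths of 612 to 876 UMIs per nucleus. Of 25866 barcode names among kept nuclei, 5476 occurred in more than 1 library, and leaving these out moved none of the main levels of the 6 genes by more than the spread between libraries. A nucleus was assigned to a class when it had at least 2 UMIs of the class's marker genes and no competing list had more than 1 in 3 of that number, which placed 14586 nuclei (45.1%). Doublets were not called.

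Because the snRNA-Seq data are 1 sample, no test between classes of nuclei was made. Levels are summed UMIs per 10000 non-viral UMIs with an exact Poisson 95% interval, shares of nuclei have an exact binomial one, and both cover counting error only. For *Sst*, SST interneurons were gated from *Elfn1*, *Grin3a*, *Crhbp*, *Satb1*, *Lhx6*, *Sox6* and *Nxph1* (SST-type nuclei, n = 416). For all other genes they were gated from *Sst* (Sst-gated nuclei, n = 390), and 295 nuclei were in both gates. *Lhx6*, *Sox6*, *Satb1* and *Nxph1* are shared with PV nuclei, and *Lhx6* stood at 0.691 per 10000 UMIs in PV and 0.972 in Sst-gated nuclei. PV nuclei in which no PV marker was sampled may therefore be among the SST-type nuclei. When *Sst* was used for gating, 120 of the SST-type nuclei were in no interneuron class. The gating rule itself keeps the markers of other classes low, so their levels describe the gate and do not test it. *Pvalb* stood at 0.476 per 10000 UMIs in them and at 15.9 in PV nuclei, *Vip* at 0.0183 against 121 in VIP nuclei, and *Slc17a7*, a glutamate transporter of excitatory neurons, at 0.0916 against 6.93 in excitatory nuclei.

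*Sst* (ENSMUSG00000004366.4, chr16:23889573-23890958 on the minus strand, GRCm38) encodes the somatostatin precursor. It was concentrated in SST-type nuclei, although no *Sst* count was used to find them. Its promoter is shown because it holds the cAMP response element through which somatostatin transcription is known to respond to cAMP, and because the ATAC-Seq region with the largest SST to PV difference near these genes lies over it. The 300 bases (RefSeq, GRCm38.p6, chr16:23890795-23891094, minus strand) run from 250 bases before the start to 50 after it, with the palindrome TGACGTCA in capitals and its first base 48 bases before the start.
Sst promoter: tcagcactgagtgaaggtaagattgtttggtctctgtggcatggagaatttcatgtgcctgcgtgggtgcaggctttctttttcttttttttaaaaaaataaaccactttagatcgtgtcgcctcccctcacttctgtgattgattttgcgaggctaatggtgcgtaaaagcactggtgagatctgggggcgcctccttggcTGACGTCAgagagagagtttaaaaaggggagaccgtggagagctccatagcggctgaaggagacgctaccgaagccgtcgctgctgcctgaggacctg

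The level of *Sst* in SST-type nuclei was 131.7 per 10000 UMIs (95% interval 128.7 to 134.8, 7187 UMIs). Over the 10 libraries it ranged from 94.3 to 160.7, with a median of 139.9, and the 2 library sets stood at 125.8 and 135.7. Every library was above the level of each other class in the same library. An *Sst* UMI was found in 309 SST-type nuclei (74.3%, 67.5% at an equal depth of 300 UMIs), with a median of 16 UMIs in those that had one and 157 in the highest.

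PV nuclei had 1.11 *Sst* UMIs per 10000 (0.835 to 1.46), so that SST-type nuclei were 118-fold higher (90.3 to 158). That ratio was 239 in the first library set and 94.0 in the second. Excitatory nuclei stood at 0.430 (0.392 to 0.471), a 306-fold difference (279 to 337). VIP and LAMP5 nuclei stood at 2.26 and 2.55, but these rested on 6 nuclei with 42 UMIs and 4 nuclei with 40 UMIs. The SST-type level was 22.2-fold that of LAMP5 nuclei in the first library set and 607-fold in the second, where LAMP5 nuclei held 2 *Sst* UMIs. Barcodes at or under 200 UMIs, which were not kept, had 3.60 *Sst* UMIs per 10000 (3.33 to 3.89), so the values in PV, VIP, LAMP5 and excitatory nuclei were all at or below the level of sparse barcodes. Glial classes lay between 1.17 in microglia and 2.58 in oligodendrocytes, and vascular nuclei stood at 0.354, all below sparse barcodes too. Kept nuclei as a whole had 4.99 (4.91 to 5.07), and the highest sparse barcode held 17 *Sst* UMIs. The sparse level is thus not a measured background, and lying below it does not mark a value as background.

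*Cort* (ENSMUSG00000028971.4, chr4:149125034-149126763, minus strand) encodes the cortistatin precursor. It was far sparser, with 260 UMIs in all kept nuclei, and most of those in assigned nuclei fell in GABAergic ones. *Cenps*, a centromere protein gene on the same strand, ends just before the annotated start of *Cort*. The promoter of *Cort* (RefSeq, GRCm38.p6, chr4:149126714-149127013, minus strand) is shown beside that of *Sst* because it lacks TGACGTCA. It holds TAATTA, the core of homeodomain sites, in capitals, with its first base 85 bases before the start.
Cort promoter: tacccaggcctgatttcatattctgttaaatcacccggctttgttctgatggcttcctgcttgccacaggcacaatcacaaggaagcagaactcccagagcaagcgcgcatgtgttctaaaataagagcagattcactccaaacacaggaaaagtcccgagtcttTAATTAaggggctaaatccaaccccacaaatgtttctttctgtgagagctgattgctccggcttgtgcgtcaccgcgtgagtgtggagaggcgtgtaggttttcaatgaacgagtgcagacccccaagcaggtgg

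Among 32544 RefSeq promoters of this length, TGACGTCA, searched on both strands as a palindrome, was in 1.80% (586), and TAATTA, also a palindrome, in 5.29%. The 5-letter half-site TGACG, which lies within TGACGTCA on both strands, was in 20.9% of promoters. It occurred in the promoters of *Sst*, *Cort* and *Sstr2* and in that of *Sstr3* at chr15:78544296-78544595. Another RefSeq promoter of *Sstr3*, at chr15:78541357-78541656, lacked it. TATAAA, searched on both strands, was in 13.6% of promoters and in none of those found for these genes. A promoter sequence was found for 5 of the 6 genes, all but *Sstr1*. A match is a description of the letters and not evidence of binding.

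In Sst-gated nuclei *Cort* stood at 1.42 per 10000 UMIs (1.10 to 1.80, 67 UMIs), between 0.476 and 3.12 in the 10 libraries, and 43 nuclei (11.03%) had a UMI. Nuclei gated without *Sst* gave nearly the same level, 1.45 (1.15 to 1.80, 79 UMIs). PV nuclei had 0.497 (0.315 to 0.745, 23 UMIs), VIP nuclei 0.331 (6 UMIs) and LAMP5 nuclei 0.329 (5 UMIs). *Cort* was thus 2.85-fold higher in Sst-gated than in PV nuclei (1.75 to 4.80), and the order held in 9 of 10 libraries. With the stricter gate that allowed no UMI of a competing list, that ratio was 1.27, from levels of 0.855 and 0.676.

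The contrast of *Cort* with excitatory nuclei was much larger. These had 20 UMIs in 8713 nuclei, or 0.0186 per 10000 (0.0113 to 0.0287), so GABAergic nuclei as a whole, at 0.721, were 38.9-fold higher (24.3 to 65.5) and PV nuclei alone 26.8-fold higher (14.1 to 51.4). In the first and second library sets these ratios were 23.0 and 61.7 for GABAergic nuclei and 17.5 and 39.3 for PV nuclei. Sparse barcodes stood at 0.0440, below each of the 4 interneuron classes. The glial classes held 0 or 1 *Cort* UMI each. Layer 4 and layer 6 nuclei held none.

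*Cort* and *Sst* were often found in the same nuclei. Of 108 GABAergic nuclei with a *Cort* UMI, 42.6% (33.1 to 52.5) also had an *Sst* UMI, against 24.3% (22.3 to 26.4) of the 1722 without one. At 300 UMIs per nucleus the shares were 38.4% and 20.7%, so the contrast was of similar size although nuclei with *Cort* were deeper (median 1374 against 980.5 UMIs). Markers of PV nuclei were found in 30.6% and 29.7% of the same groups, and those of VIP nuclei in 4.63% and 13.5%. Within SST-type nuclei the intervals overlapped, with *Sst* found in 69.4% (54.6 to 81.8) of the nuclei with a *Cort* UMI and 74.9% (70.2 to 79.3) of those without.

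Within the Sst-gated nuclei, *Cort* followed *Npy* and *Calb1*, a neuropeptide and a calcium-binding protein of subsets of SST interneurons. The 256 nuclei with an *Npy* UMI had 1.86 *Cort* UMIs per 10000 (1.43 to 2.37), and the 134 without had 0.299 (0.0814 to 0.765, 4 UMIs). For *Calb1* the levels were 2.25 (1.66 to 2.99) in 146 nuclei with it and 0.730 (0.439 to 1.14) in 244 without. The nuclei with these markers were also deeper (medians of 1191 against 884 UMIs for *Npy*, and 1320 against 984 for *Calb1*), and the part of depth in the result was not tested. For *Pdyn*, with 90 positive nuclei, the intervals of *Cort* overlapped (0.972 with, 1.57 without), as they did for *Hpse* (0.750 and 1.50). *Calb2*, *Chodl*, *Tac1* and *Crh* marked 8 to 21 nuclei each and *Nos1* none.

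**Figure D1:**
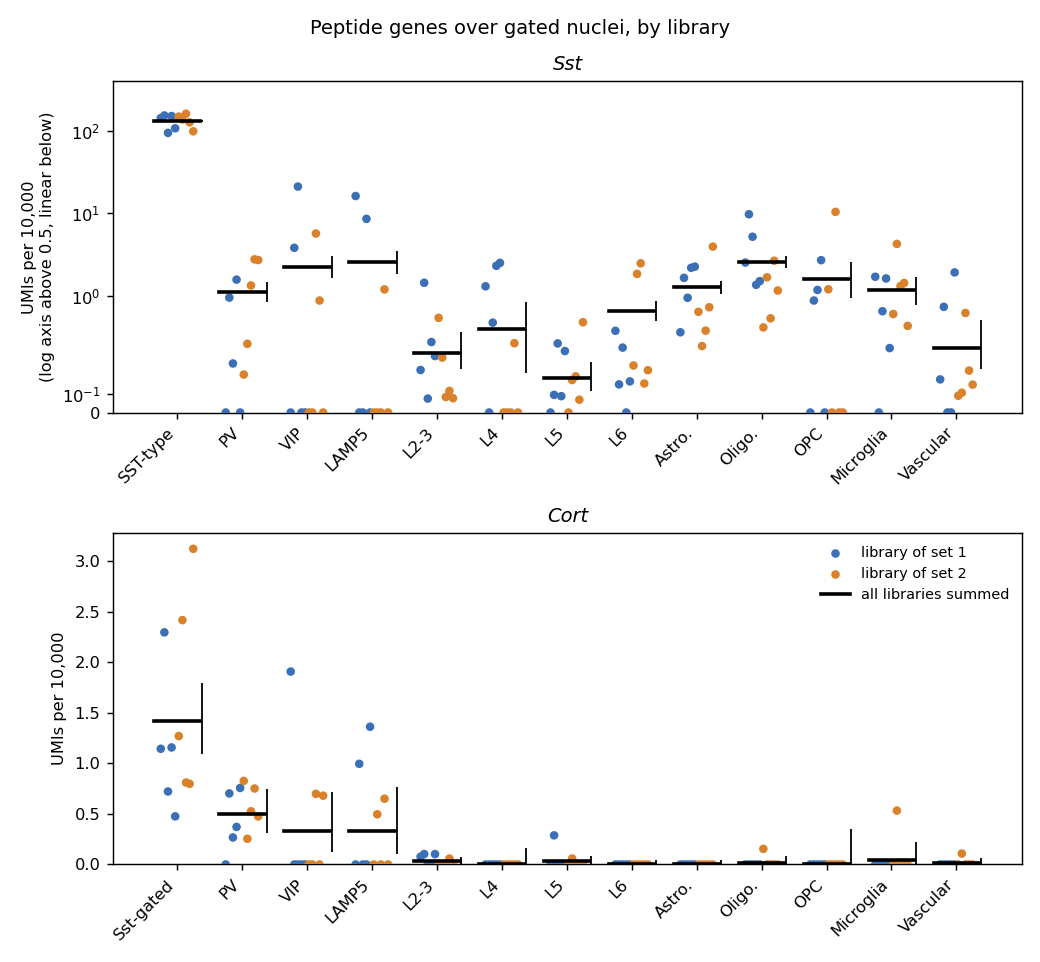
*Sst* and *Cort* over gated classes of nuclei, in UMIs per 10000 on the vertical axis (for *Sst* a log axis above 0.5 and linear below). Points are the 10 libraries, coloured by library set, and the horizontal bar with its vertical line is the value over all libraries with its 95% interval. For *Sst* all 10 libraries of the SST-type class lie between 94.3 and 160.7, above every other class, while the *Cort* libraries of the Sst-gated class spread from 0.476 to 3.12.

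The receptors were spread over different classes. *Sstr1* (ENSMUSG00000035431.4, chr12:58211772-58214444, plus strand) encodes a receptor known in some brain areas as a presynaptic autoreceptor. Among the interneuron classes it was found in Sst-gated nuclei (0.317 per 10000 UMIs, 0.177 to 0.523, 15 UMIs in 14 nuclei), with 1 UMI in PV nuclei. It had none in 204 VIP and 126 LAMP5 nuclei, which allows up to 1.47% and 2.38% of nuclei with a UMI. The 796 GABAergic nuclei in none of these classes held 6 *Sstr1* UMIs (0.0795, 0.0292 to 0.173). SST-type nuclei gated without *Sst* gave 0.275 (0.154 to 0.453).

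*Sstr1* in Sst-gated nuclei was 2.73-fold its level in excitatory nuclei (1.49 to 4.68), where it stood at 0.116 (0.0965 to 0.138, 125 UMIs), and the order held in 8 of 10 libraries. Sparse barcodes had 0.0604 (0.0302 to 0.108). Among the layers, layer 6 had 0.201 (0.117 to 0.322), layer 2-3 0.121 and layer 5 0.109. The layer 6 to layer 5 ratio was 1.85 (0.857 to 4.05), so these neighbours did not differ beyond counting error.

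The highest *Sstr1* level of all classes was in oligodendrocyte precursor cells (OPCs), at 0.851 per 10000 (0.389 to 1.62), although from 9 UMIs in 8 of 265 nuclei. One UMI or more was found in 8 of 10 libraries, and the ratio to excitatory nuclei was 7.34 (3.28 to 14.4). OPC nuclei were shallow (median 320 UMIs), and at 300 UMIs 2.98% had an *Sstr1* UMI, against 0.850% of Sst-gated and 0.336% of excitatory nuclei. Mature oligodendrocytes had 0 *Sstr1* UMIs in 1293 nuclei, which allows up to 0.232% of nuclei with a UMI.

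*Sstr2* (ENSMUSG00000047904.6, chr11:113619342-113626028, plus strand) encodes the receptor that mediates much of somatostatin's postsynaptic inhibition. It was the receptor with the most UMIs here (1322), and it was found mainly in excitatory nuclei. Its promoter (RefSeq, GRCm38.p6, chr11:113619077-113619376, plus strand) is shown because it shares TGACGTCA, in capitals, with that of *Sst*, 58 bases before the start.
Sstr2 promoter: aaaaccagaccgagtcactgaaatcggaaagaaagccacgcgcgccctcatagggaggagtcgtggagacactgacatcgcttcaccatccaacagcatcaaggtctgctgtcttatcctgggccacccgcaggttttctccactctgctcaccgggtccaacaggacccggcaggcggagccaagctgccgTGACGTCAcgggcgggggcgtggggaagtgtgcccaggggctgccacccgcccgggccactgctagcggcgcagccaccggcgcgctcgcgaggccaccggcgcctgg

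Excitatory nuclei had 0.617 *Sstr2* UMIs per 10000 (0.571 to 0.666, 665 UMIs), between 0.479 and 0.842 in the libraries. GABAergic nuclei had 0.163 (0.112 to 0.229), a 3.78-fold difference (2.67 to 5.54) that held in 10 of 10 libraries. It was 2.47-fold in the first library set and 7.23-fold in the second. Sst-gated nuclei held 1 UMI (0.0211, 0.000535 to 0.118), and SST-type nuclei gated without *Sst* held 7 (0.128, 0.0516 to 0.264), both below excitatory nuclei. All of these interneuron values lay below the 0.390 (0.305 to 0.492) of sparse barcodes. Kept nuclei as a whole stood at 0.464 (0.440 to 0.490), so the sparse level is no measured background here either.

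Of the 8713 excitatory nuclei, the layer gates took 870 for layer 2-3, 167 for layer 4, 676 for layer 5 and 585 for layer 6. Most excitatory nuclei, and most of their *Sstr2* UMIs, therefore had no layer. Among the nuclei with a layer, *Sstr2* differed by layer. Layer 5 had 0.949 (0.788 to 1.13, 122 UMIs), layer 6 had 0.556 (0.409 to 0.740), layer 4 had 0.409 (0.187 to 0.776, 9 UMIs) and layer 2-3 had 0.144 (0.0868 to 0.225, 19 UMIs). Layer 5 was above layer 2-3 in 10 of 10 libraries (6.58-fold, 4.04 to 11.3), above layer 6 in 7 (1.71-fold, 1.21 to 2.44) and above layer 4 in 8 (2.32-fold, 1.18 to 5.20). Layer 6 and layer 4 did not differ beyond their intervals. Layer 5 nuclei were the deepest (median 1763 UMIs), and at 300 UMIs the shares of nuclei with *Sstr2* were still 2.90% in layer 5 and 0.561% in layer 2-3. The size of the layer 5 to layer 2-3 ratio varied with the library set, at 3.88 in the first and 21.0 in the second. Layer 2-3 held 16 and 3 *Sstr2* UMIs in these sets. The ratio also varied with the gate, at 14.1 when 3 marker UMIs were asked for. The layer 2-3 level lay below the 0.390 of sparse barcodes.

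*Sstr2* lies within an intron of *Slc39a11* (chr11:113244853-113650079), a zinc transporter gene on the opposite strand, and whether UMIs were assigned by strand is not given in the sources used here. *Slc39a11* itself stood at 0.140 (0.0830 to 0.221) in layer 5 and 0.129 (0.0751 to 0.207) in layer 2-3. In GABAergic nuclei *Slc39a11* was higher (0.257, 0.192 to 0.337) than in excitatory ones (0.120, 0.0999 to 0.142). Whether RNA of *Slc39a11* adds to the *Sstr2* counts was not tested.

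*Sstr3* (ENSMUSG00000044933.3, chr15:78537008-78544685, minus strand) encodes a receptor known to sit in the primary cilium of neurons. Like *Sstr2* it was mainly in excitatory nuclei, at 0.275 per 10000 UMIs (0.244 to 0.308) against 0.0445 (0.0203 to 0.0844, 9 UMIs) in GABAergic ones, a ratio of 6.18 (3.21 to 13.6) with the same order in 10 of 10 libraries. The ratio was 3.75 in the first library set and 11.1 in the second. Its layers were ordered differently, although most of its UMIs in excitatory nuclei fell in nuclei without a layer. Layer 2-3 had the highest level (0.402, 0.301 to 0.526, 53 UMIs), 2.46-fold layer 5 (1.46 to 4.30) and 3.09-fold layer 6 (1.60 to 6.56), each in 9 of 10 libraries. Layer 4, with 4 UMIs, could not be placed (ratio to layer 2-3 with an interval of 0.816 to 8.42). Sparse barcodes stood at 0.225 (0.162 to 0.306), above the values of layers 4, 5 and 6 and near the 0.217 (0.200 to 0.235) of all kept nuclei.

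*Sstr4* (ENSMUSG00000037014.4, chr2:148395344-148396767, plus strand) was nearly undetected, with 7 UMIs in 7 of 32335 nuclei. These were 2 excitatory, 1 LAMP5, 1 oligodendrocyte and 3 unassigned nuclei. No order of classes can be read at this depth.

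**Figure D2:**
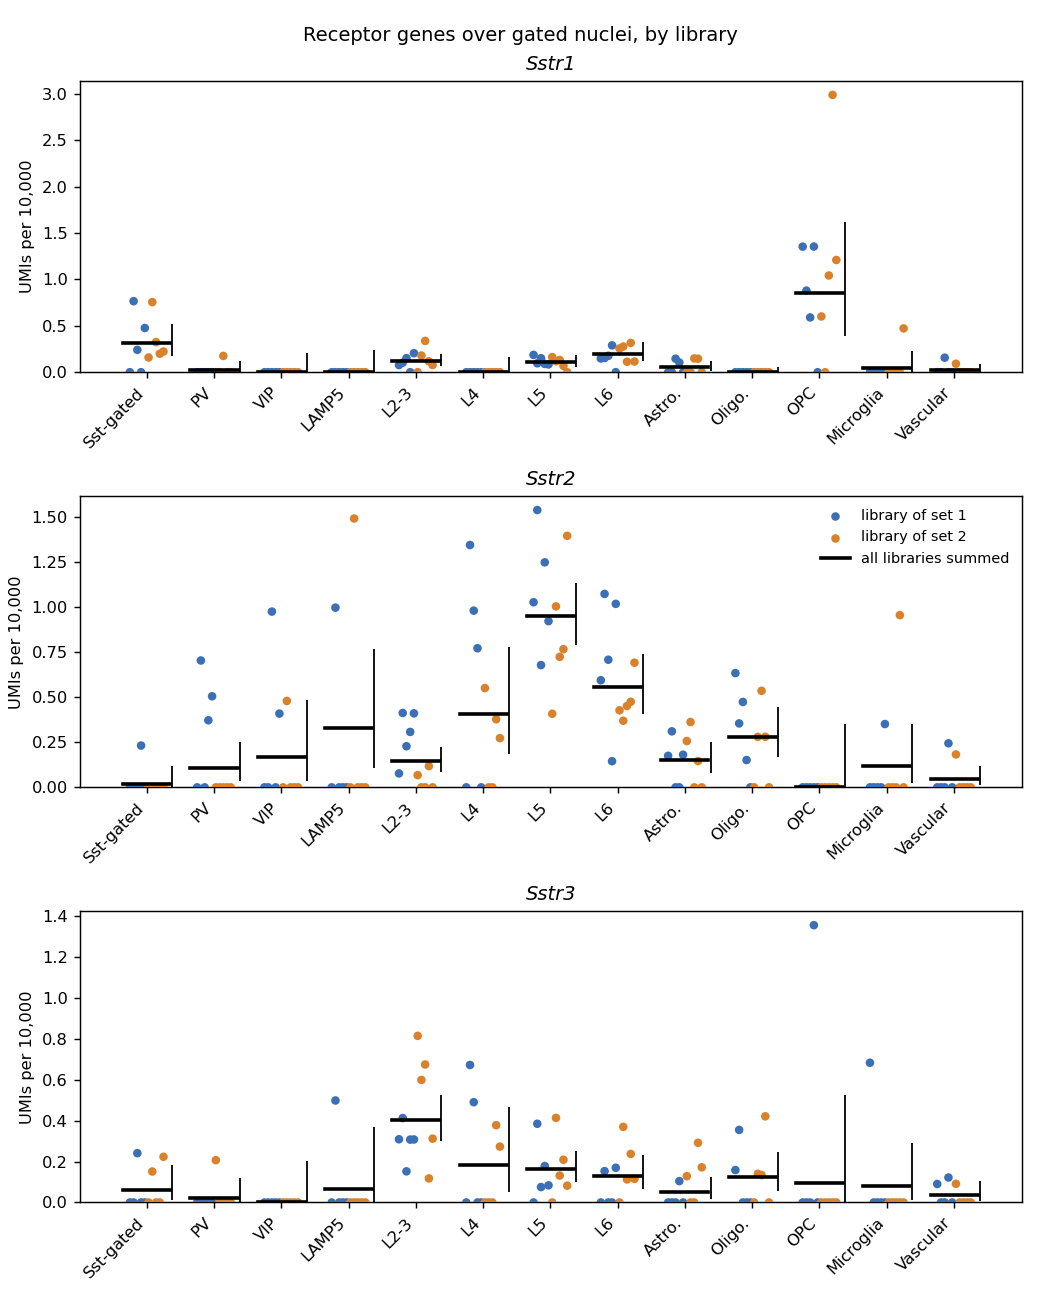
*Sstr1*, *Sstr2* and *Sstr3* over gated classes of nuclei, in UMIs per 10000 on linear vertical axes. Points are the 10 libraries, coloured by library set, and bars give the value over all libraries with a 95% interval. *Sstr2* is highest in layer 5 (0.949 over all libraries) and *Sstr3* in layer 2-3 (0.402), while the *Sstr1* value of OPCs (0.851) rests on 9 UMIs.

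A list of 24 other genes of the pathway, chosen by role, was compared between Sst-gated and excitatory nuclei. The intervals did not overlap for 9 of them, 2 higher and 7 lower in Sst-gated nuclei, and the other 15 overlapped. Over all 24493 genes with a UMI, 5.46% were higher and 6.10% lower by the same criterion. The list was not matched to all genes by UMI count, and the wide intervals of sparse genes seldom separate. How often the list and all genes differ therefore cannot be compared directly. The median log2 ratio was -0.07 for the list and -0.25 for all genes.

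Among the precursor-processing genes, *Pcsk2*, a convertase of neuropeptide precursors, stood at 1.69 per 10000 in Sst-gated and 10.8 in excitatory nuclei, and *Cpe*, the carboxypeptidase that trims the cut peptides, at 8.36 and 11.7. *Pcsk1n*, an inhibitor of the related convertase PCSK1, was higher in Sst-gated nuclei (4.60 against 2.69). Of the GIRK channel genes, *Kcnj3* stood at 2.05 in Sst-gated and 4.50 in excitatory nuclei, *Kcnj9* at 1.44 and 3.00, and *Kcnj6* had 79 UMIs in all nuclei. Of the adenylyl cyclases, *Adcy2* was higher in Sst-gated nuclei (4.06 against 1.85), and *Adcy1* and *Adcy9* lower. The fifth receptor, *Sstr5*, had 21 UMIs in all.

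ATAC-Seq measures how open chromatin is by where a transposase can insert. The 6 samples held 1801883 to 2256073 reads over the reference regions. The deposited read counts were fitted across all regions with edgeR's quasi-likelihood test (TMM scaling, all 6 samples), and a region was called at a Benjamini-Hochberg adjusted p under 0.05. In such pooled nuclei, fewer open cells and less open chromatin per cell cannot be told apart. Log2 differences are fitted values with their standard error, with the first-named class minus the second. The defining genes went with the labels. Regions over *Pvalb* held 65 and 77 reads in PV, 32 and 40 in SST and 25 and 36 in VIP samples, and those over *Vip* held 31 and 41 in VIP samples and 2 to 7 in the others. Among genes of other cell types, *Slc17a7* had 4 to 9 reads in every sample, *Aqp4* of astrocytes 10 to 24 and *Mog* of oligodendrocytes 1 to 8.

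Of the 128 regions near the 6 genes, 30 passed the filter on low counts and were tested. Between SST and PV, 5 were called (4 higher in SST, 1 in PV), or 16.67%, where 8.29% of all 40338 tested regions were called (3.96% higher in SST and 4.33% in PV). Between SST and VIP, 10 were called (7 higher in SST, 3 in VIP), or 33.33% against a background of 36.3% (17.8% higher in SST and 18.4% in VIP). Between PV and VIP, 12 were called (9 higher in PV, 3 in VIP), or 40.0% against 49.1% (24.6% higher in PV and 24.6% in VIP). The counts of the latter comparisons were therefore near or under the background. The 3 comparisons share samples. Of 27 calls in the regions described below, DESeq2 kept 10, with no adjusted p given for some regions, and the fit without a filter on low counts kept 6. Some regions passed the filter only through the class in which they were highest, and so had to differ to some degree. Among the regions described below, these were those at and upstream of the *Sst* start, and at and just upstream of the *Sstr1* start. The same held upstream of *Cort*, 15493 bases downstream of *Sstr2*, and for the first and second described near *Sstr3*. The regions at the *Cort* start and in the *Thbd* exon also needed their PV reads to pass, though SST replicate 1 reached the filter's level too. The *Sst* and *Sstr1* regions accounted for all 4 calls higher in SST than in PV.

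The region over the start of *Sst* (chr16:23890318-23891106) held 33 and 32 reads in the SST samples, 2 and 2 in PV and 4 and 4 in VIP. Both SST samples were far above the other samples, with no overlap. The difference was 3.81 ± 0.56 (SE) against PV on the log2 scale (adjusted p = 0.00166, edgeR) and 3.04 ± 0.49 against VIP (adjusted p = 0.000159). The peak lists held a peak there only in the SST samples, with −log10 q of 28.1 and 33.7, while the deposited 0 or 1 table also marked PV replicate 1. The region was tested only through its SST reads. Both calls held with each sample left out in turn, and that against PV was lost without the filter on low counts (adjusted p = 0.0769).

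A further region 1935 bases upstream of the *Sst* start (chr16:23892540-23893247) was in no annotated protein-coding gene, and non-coding genes were not looked up. It held 10 and 24 reads in SST, 0 and 3 in PV and 1 and 2 in VIP samples. It was called against both classes (3.25 ± 0.78 against PV, adjusted p = 0.0169, and 3.44 ± 0.77 against VIP, adjusted p = 0.00203, edgeR), and the peak lists held it in the SST samples only (−log10 q of 6.92 and 12.0). The SST to PV call was lost without PV replicate 1 (adjusted p = 0.204) or SST replicate 2 (0.360), and the SST to VIP call without SST replicate 2 (0.142). The region passed the filter on low counts only through its SST reads, and without the filter both calls were lost (adjusted p = 0.309 against PV and 0.0704 against VIP). DESeq2 gave no adjusted p for SST against PV there. Its central 300 bases (GRCm38.p6, chr16:23892744-23893043, plus strand) are shown as the distal accessible sequence next to *Sst*, with TTTATA, which is TATAAA on the other strand, in capitals.
Sst upstream region: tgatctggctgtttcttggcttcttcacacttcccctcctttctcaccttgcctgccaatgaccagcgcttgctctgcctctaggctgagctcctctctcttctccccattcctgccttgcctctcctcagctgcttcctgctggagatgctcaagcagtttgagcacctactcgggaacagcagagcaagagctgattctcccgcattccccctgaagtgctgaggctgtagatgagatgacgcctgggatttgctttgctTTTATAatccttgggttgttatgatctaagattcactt

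TATAAA was in 6.06% of the central 300 bases of all tested regions on either strand. TGACGTCA and TAATTA were not in this window.

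Near *Cort* the calls were toward PV. The region over its start, which also covers the last exon of *Cenps* (chr4:149126258-149127429), held 11 and 11 reads in SST, 17 and 17 in PV and 5 and 7 in VIP samples. The 3 classes did not overlap, with PV highest and VIP lowest. Without its PV reads the region would not have passed the filter on low counts. Only PV against VIP was called (1.69 ± 0.50, adjusted p = 0.00970, edgeR), and SST was not called against PV (-0.76 ± 0.45, adjusted p = 0.313) or VIP (0.92 ± 0.53, adjusted p = 0.187). That call was lost when any of the PV or VIP samples was left out (adjusted p of 0.0521 to 0.0925).

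A region 1901 bases upstream of *Cort*, over an exon of *Cenps* (chr4:149128304-149129024), held 2 and 2 reads in SST, 10 and 11 in PV and 0 and 3 in VIP samples. It was the only region called higher in PV than in SST (-2.46 ± 0.73, adjusted p = 0.0437, edgeR). That call was lost with the replicate number as a block (adjusted p = 0.0922) and when any of the 6 samples was left out (0.117 to 0.485). The region passed the filter on low counts only through its PV reads, and the call was also lost without the filter (adjusted p = 0.541), while DESeq2 gave it no adjusted p. PV was also called above VIP there (2.91 ± 0.77, adjusted p = 0.00509), a call lost without either PV sample or VIP replicate 1 (0.123 to 0.198), without the filter (0.127) and with DESeq2 (0.0766). The third call near *Cort* was the promoter of its neighbour *Dffa* (1.27 ± 0.49 for PV against VIP, adjusted p = 0.0398, and 0.0883 to 0.505 without either PV sample or VIP replicate 2).

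All 4 tested regions near *Sstr1* lay at the gene, and all 4 were called higher in SST than in VIP. The first, just upstream (chr12:58211107-58211707), held 23 and 32 reads in SST, 5 and 5 in PV and 6 and 3 in VIP samples. The second, over the start (chr12:58211465-58212079), held 17 and 25, 6 and 4, and 3 and 4. They share 243 bases and are not independent. In both, each SST sample was above all PV and VIP samples, and both passed the filter on low counts only through their SST reads.

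The upstream *Sstr1* region differed by 2.29 ± 0.50 against PV (adjusted p = 0.0112, edgeR) and 2.62 ± 0.51 against VIP (adjusted p = 0.000700). The start region differed by 1.90 ± 0.50 (adjusted p = 0.0275) and 2.59 ± 0.54 (adjusted p = 0.00116). The SST to VIP calls of both held under every alternative tried. The SST to PV calls were lost without either PV sample (adjusted p of 0.0553 to 0.202), and that of the start region also without SST replicate 2 (0.152). Without the filter on low counts they were lost too (0.198 and 0.305). DESeq2 called neither, with an adjusted p of 0.131 for the upstream region and none given for the start region. The peak lists held neither region in any of the 6 samples.

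The regions over the *Sstr1* exon were broader in their distribution. They share 175 bases and are not independent of each other either. The nearer to the start (chr12:58212085-58213332) held 67 and 56 reads in SST, 29 and 41 in PV and 31 and 25 in VIP samples, and differed by 1.19 ± 0.34 between SST and VIP (adjusted p = 0.0114, edgeR). The other (chr12:58213158-58213981) held 45 and 50, 35 and 40, and 20 and 22 reads. It was higher in both SST (1.23 ± 0.34, adjusted p = 0.00849) and PV (1.04 ± 0.35, adjusted p = 0.0196) than in VIP. The first of these calls was lost without VIP replicate 2 (adjusted p = 0.200), the SST to VIP call of the other without either VIP sample (0.0878 and 0.121), and its PV to VIP call without any PV or VIP sample (0.0817 to 0.188). Their mean phyloP scores, a measure of conservation, were 1.13 and 1.36, and that of the upstream region was 0.146.

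**Figure D3:**
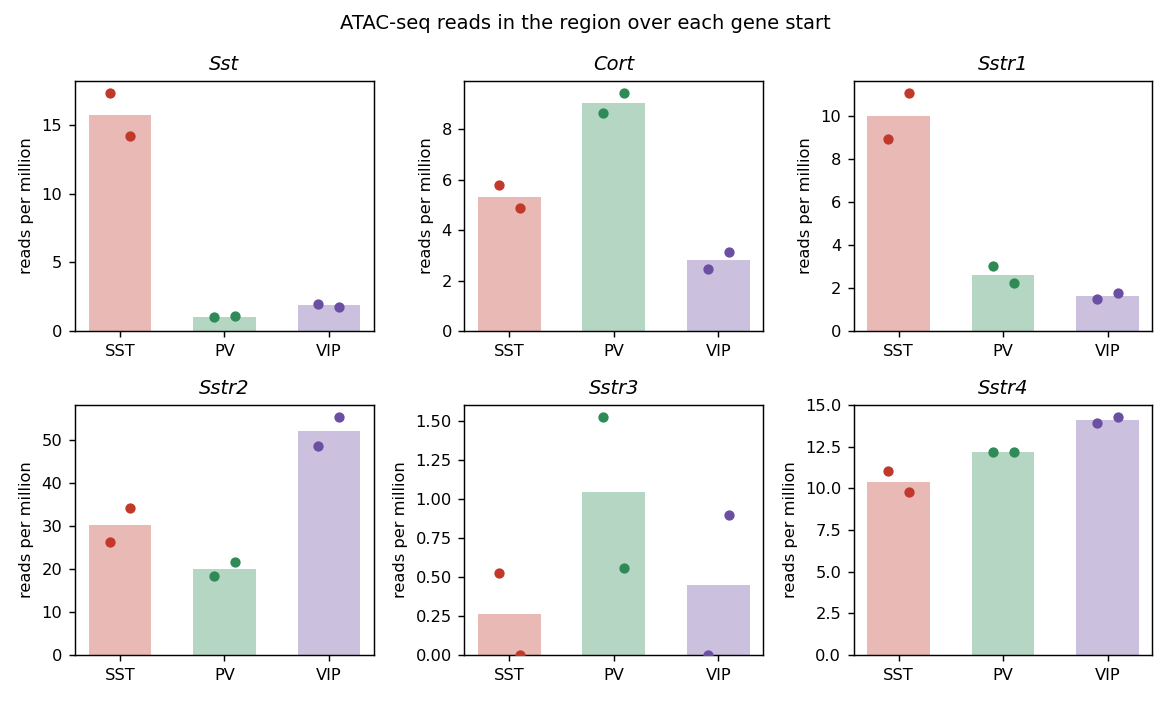
ATAC-Seq reads in the region over the start of each gene, scaled to each sample's total, for the 2 samples each of SST, PV and VIP interneurons (points) with their mean (bar) and with vertical axes that start at 0 and differ between panels. SST samples stand apart at *Sst* and *Sstr1*, PV samples are highest at *Cort* and VIP samples at *Sstr2*, while *Sstr3* held 0 to 3 reads per sample.

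At *Sstr2* the order was different, with VIP samples highest. The region over its start, also in the *Slc39a11* intron (chr11:113618939-113619703), held 50 and 77 reads in SST, 36 and 39 in PV and 98 and 124 in VIP samples, with no overlap between classes. It was lower in PV than in VIP (-1.35 ± 0.28, adjusted p = 0.000895, edgeR), a call that held under every alternative tried. SST was lower than VIP too (-0.75 ± 0.26, adjusted p = 0.0330), a call lost without SST replicate 1, PV replicate 2 or either VIP sample (0.0525 to 0.175), and SST against PV was not called (0.60 ± 0.29, adjusted p = 0.208). In the nuclei *Sstr2* had 3 UMIs in the VIP gate (0.166, 0.0341 to 0.484) and 5 in the PV gate (0.108, 0.0351 to 0.252), which do not differ beyond counting error.

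A region 15493 bases downstream of the *Sstr2* start (chr11:113634487-113635183) was accessible almost only in VIP samples, with 17 and 32 reads there, 0 and 2 in SST and 2 and 4 in PV samples. The difference was -4.38 ± 0.75 for SST against VIP (adjusted p = 0.000263, edgeR), which held under every alternative tried, and -2.77 ± 0.62 for PV against VIP (adjusted p = 0.00154, and 0.0909 without VIP replicate 2). It was tested only through its VIP reads. The peak lists held it only in the VIP samples (−log10 q of 20.3 and 35.9). It lies in an intron of *Slc39a11* beyond the end of *Sstr2*, and which gene it acts on was not tested. Its central 300 bases (GRCm38.p6, chr11:113634686-113634985, plus strand) are shown because this was the most negative SST difference among the tested regions near these genes. None of the searched motifs occurred in it.
Sstr2 downstream region: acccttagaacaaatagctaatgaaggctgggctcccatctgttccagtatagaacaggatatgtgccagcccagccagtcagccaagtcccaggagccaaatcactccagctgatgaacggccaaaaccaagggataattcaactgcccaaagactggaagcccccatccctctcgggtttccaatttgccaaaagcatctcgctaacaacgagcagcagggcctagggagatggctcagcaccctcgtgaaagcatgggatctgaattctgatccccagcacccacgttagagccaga

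The neighbouring region just before the start (chr11:113618421-113619075), which shares 137 bases with the start region, held 17 and 33 reads in SST, 15 and 11 in PV and 26 and 47 in VIP samples. PV was lower than VIP there as well (-1.27 ± 0.42, adjusted p = 0.0183, edgeR, and 0.0512 to 0.165 without either PV sample or VIP replicate 2). A region 28922 bases downstream of the *Sstr2* start (chr11:113647821-113648708) was higher in PV (39 and 32 reads) than in VIP samples (6 and 13; 2.09 ± 0.57, adjusted p = 0.00622, edgeR). The SST samples, with 38 and 8 reads, spanned both.

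The start of *Sstr3* (chr15:78543934-78545350) held 0 to 3 reads per sample and was under the filter. The peak lists nevertheless held a peak there in both VIP samples (−log10 q of 6.40 and 3.38), from 0 and 2 reads in the count table, a mismatch that was not resolved. The 3 calls near *Sstr3* lay 12499 to 14832 bases downstream of its start, at or beside the neighbouring gene *C1qtnf6*, 1 higher in SST than in VIP (1.72 ± 0.56, adjusted p = 0.0228, edgeR) and 2 higher in PV than in VIP (1.91 ± 0.54, adjusted p = 0.00815, and 0.79 ± 0.30, adjusted p = 0.0379). The first was lost without SST replicate 1 or VIP replicate 1, the second without PV replicate 1 or VIP replicate 1, and the third without any of the PV or VIP samples (adjusted p of 0.104 to 0.433).

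The start of *Sstr4* (chr2:148394949-148396375) was open in all classes, with 21 and 22 reads in SST, 24 and 22 in PV and 28 and 32 in VIP samples, and no comparison was called (log2 differences of -0.42 to -0.18). This contrasted with its 7 UMIs in the nuclei. A region 2386 bases downstream of the start (chr2:148397423-148398037) was higher in PV (41 and 28 reads) than in VIP (11 and 11; 1.83 ± 0.40, adjusted p = 0.00136, edgeR), with SST (18 and 18) between them. A region in the *Sstr4* exon that shares 250 bases with the start region was lower in SST than in VIP (-1.27 ± 0.40, adjusted p = 0.0189, and 0.0756 or 0.104 without SST replicate 1 or VIP replicate 2). A region 11168 bases downstream, in an exon of *Thbd*, was higher in PV than in VIP (1.57 ± 0.48, adjusted p = 0.0120, edgeR). This region needed its PV reads to pass the filter on low counts, and its call was lost without PV replicate 2 or either VIP sample.

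**Figure D4:**
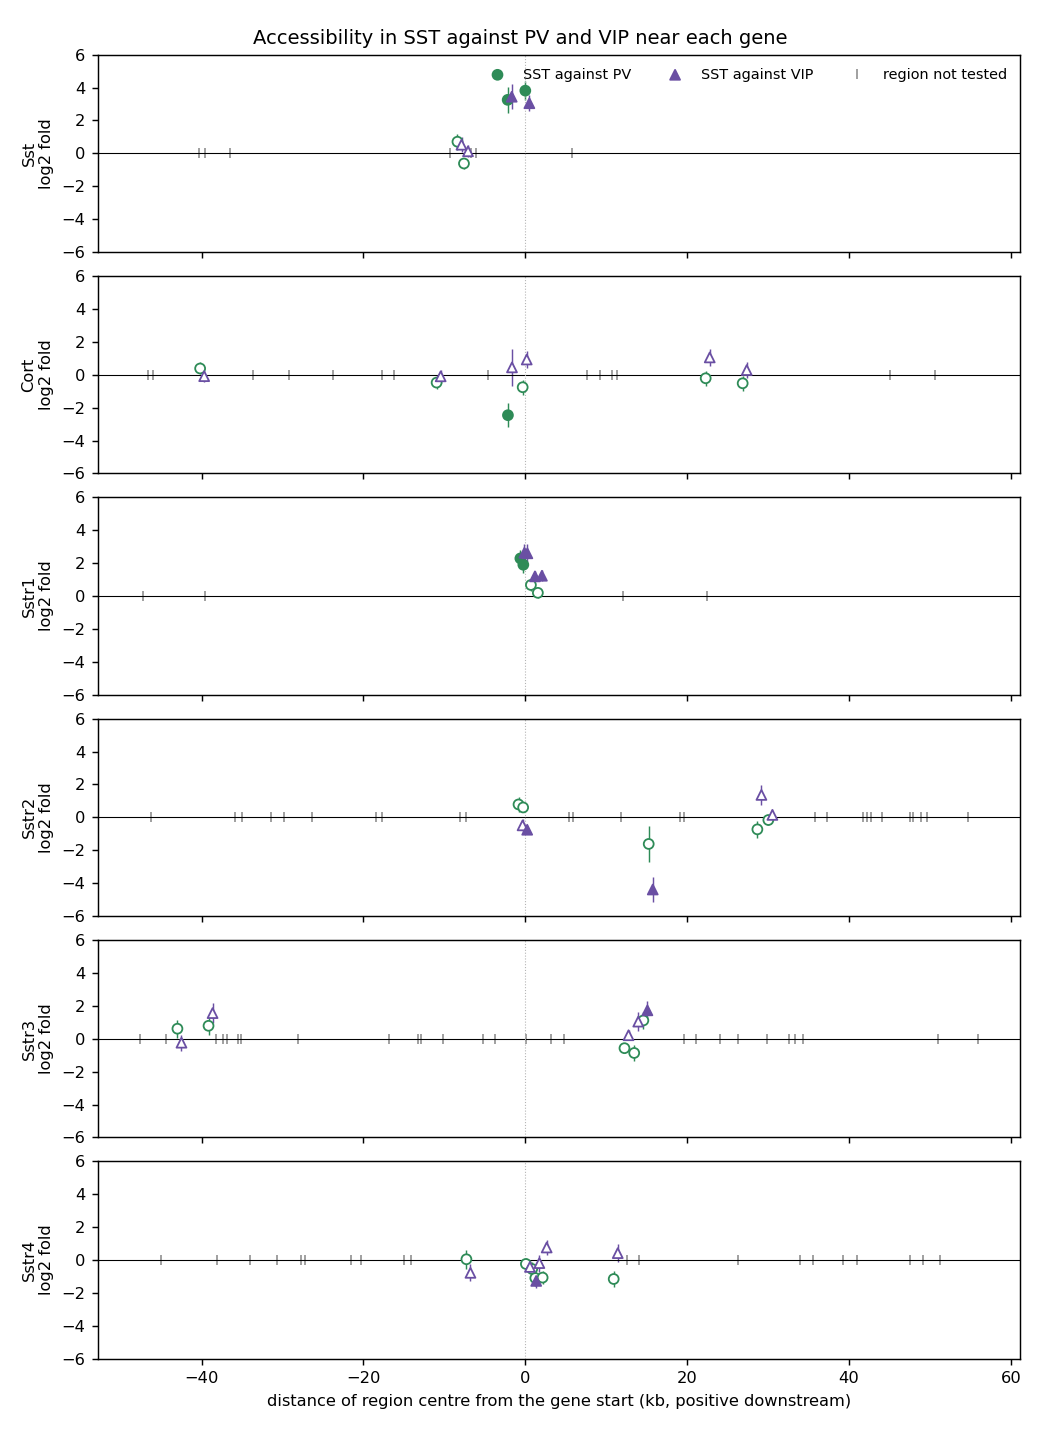
Fitted log2 differences of the tested ATAC-Seq regions near each gene, SST against PV and SST against VIP, by the distance of the region's centre from the gene start in kb (positive is downstream); vertical lines are standard errors, ticks are regions not tested and filled points are called at an adjusted p under 0.05. The largest positive values are at the *Sst* start (3.81 against PV) and just upstream of it (3.44 against VIP), and the most negative, -4.38, is downstream of *Sstr2*.

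For the 24 other pathway genes, 20 had a tested region over the start. None was called between SST and PV (median -0.13, against -0.01 over all regions), where 8.29% of all tested regions were. Between SST and VIP *Pcsk1*, a convertase of precursors, was higher in SST (1.05) and *Gnai2*, an inhibitory G protein subunit, lower (-0.72), so 2 of 20 were called against a background of 36.3%. Between PV and VIP 5 were higher in PV, among them *Pcsk1* (1.76), and 3 in VIP, against a background of 49.1%.

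Of the 287 screened GREs, 2 lay within 500 kb of *Sst* and 3 of *Sstr1*, and none near the other 4 genes. Per the methods, the primers added flanking sequence on each side of each GRE. The fragments carried by the virus were therefore longer than the coordinates given below. Viral UMIs per nucleus were compared between Sst-gated nuclei and the other kept nuclei, without a test. Summed over all GREs, Sst-gated nuclei had 3.94 times as many viral UMIs per nucleus as the others. Unlike the levels above, these counts were not scaled to depth. Median depths were 1094 non-viral UMIs in Sst-gated and 712 in all kept nuclei, and the part of depth in the folds was not tested. The authors had picked these regions for their accessibility in the same ATAC-Seq samples, so their position near *Sst* or *Sstr1* is not independent of the values above.

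GRE222 (chr16:23890469-23890956) lies inside the *Sst* start region, 488 bases over its first exon. By the RefSeq start, which lies inside the annotated gene, it also takes in the TGACGTCA of the promoter printed above. It gave few transcripts, with 210 UMIs in 32335 nuclei, and its 3 barcodes gave 9, 182 and 19 of them. Of these UMIs, 3 were in the 390 Sst-gated nuclei (0.00769 per nucleus, 0.00159 to 0.0225), 4 in PV and 6 in VIP nuclei. The paper reports that the number of cells with a barcode followed its abundance in the virus pool. The amount of GRE222 in the pool was not examined here, so its dose and its activity cannot be told apart. The fold of Sst-gated over other nuclei was 1.19 (0.243 to 3.52), below the 3.94 of all GREs together. The gene and its start region were both highest in SST cells. This element, carried by the virus with added flanks, was not higher in Sst-gated than in other nuclei beyond counting error. That comparison rests on 3 UMIs in Sst-gated nuclei.

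GRE126 (chr16:24053278-24053830), 162596 bases upstream of *Sst*, had 1.48 UMIs per Sst-gated nucleus, 0.975 per PV and 0.598 per excitatory nucleus. Its fold of 3.15 (2.90 to 3.43) was under that of all GREs together, but it ranked 95 of 287 by a fold with a pseudocount of 0.01, which pulls sparse GREs toward 1 (3.11 against a median GRE of 2.33). Downstream of *Sstr1*, GRE16 (chr12:58554758-58555057) had 0.449 UMIs per Sst-gated nucleus (0.385 to 0.520), 0.121 per PV and 0.120 per excitatory nucleus. Its fold over other nuclei was 5.53 (4.72 to 6.45), above in 10 of 10 libraries, and it ranked 27 of 287 by the same measure. Its 175 UMIs in Sst-gated nuclei lay in 47 nuclei (12.05%, against 3.12% of the other nuclei). The interval treats UMIs as independent and does not cover this clumping. For GRE16, barcodes 1, 2 and 3 gave 1, 101 and 73 UMIs in Sst-gated nuclei. GRE99 (chr12:58551175-58551474), beside it, had a fold of 4.10 (3.45 to 4.84), close to that of all GREs. GRE254 (chr12:58695470-58695991) had 7 UMIs in Sst-gated nuclei. GRE16 lies 343135 bases from the *Sstr1* start, and its link to *Sstr1* was not tested.

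**Figure D5:**
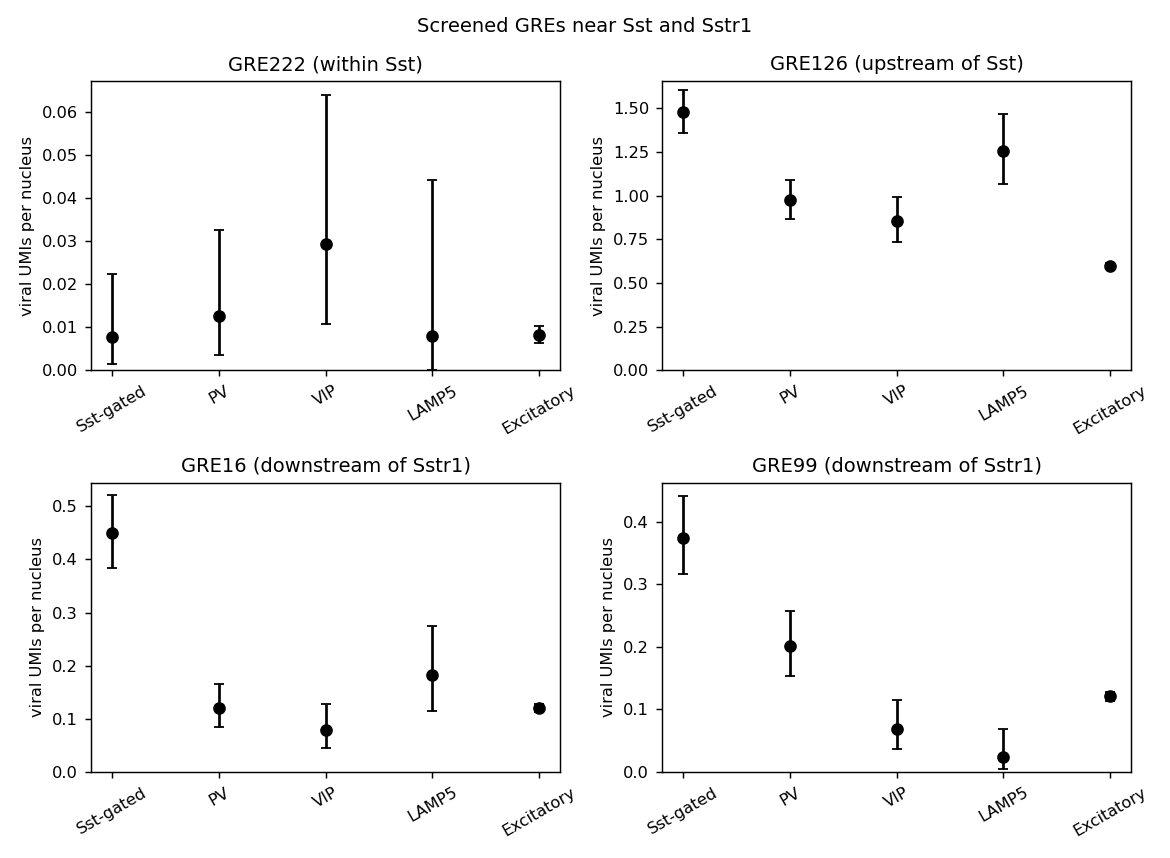
Viral UMIs per nucleus of 4 GREs near *Sst* and *Sstr1* in gated classes of nuclei; points are the value over all libraries and whiskers its Poisson 95% interval, and the vertical axes start at 0. GRE16 reaches 0.449 in Sst-gated nuclei against 0.121 in PV nuclei, and GRE222 stands at 0.00769 from 3 UMIs. Levels of different GREs may also reflect their amounts in the virus pool, which were not compared.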

How the data were processed

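The snRNA-Seq tables are the authors' deposited counts, whole UMIs per nucleus and gene without normalization, made with the inDrops pipeline on GRCm38 with the viral barcodes added. The ATAC-Seq table holds the authors' deposited read counts per reference region without normalization. Per the submitters' notes and the methods, reads were trimmed (Trimmomatic 0.33), aligned to mm10 (Subread 1.4.6-p3), cleared of duplicates and counted with featureCounts over regions pooled from many cortical samples. The deposited peak lists, called per sample by both MACS2 and HOMER, give a −log10 q-value. The deposited phyloP score is the authors' mean conservation per region. The authors' specificity columns for GREs hold their own comparisons and were not used.

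Levels were computed in Python 3.11.15 (numpy 2.4.6, scipy 1.17.1, pandas 2.3.3) after nuclei at or under 200 UMIs were left out. Viral barcode columns numbered 1164, of which 861 belonged to GREs and 303 were not used. Shares of nuclei were compared at 300 UMIs by the expected share after thinning, leaving out shallower nuclei. Upper limits for counts of 0 use 3 counts. Regions were tested with edgeR 4.0.16 in R 4.3.3 (glmQLFTest, TMM, filterByExpr, two-sided, Benjamini-Hochberg adjustment over 40338 regions), checked on simulated data, with DESeq2 1.42.0 as an alternative. Each group has 2 samples, each from 1 animal per the methods. The biological coefficient of variation was 0.181. Same-numbered samples did not deviate together (correlations of -0.0371, 0.0225 and 0.0287), so replicate numbers were not taken to pair them. The regions described were those over a start and up to 4 per gene with the lowest p among those called. The members, marker lists, pathway list and tests were chosen with earlier results of these data known. Region starts were converted to 1-based positions. One of the genes ranked as most like *Sstr2* is not reported here, and only some of the sequences read are printed.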

Additional observations from a re-analysis of the deposited data

How the results depend on the processing

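The counts of called regions near the 6 genes were 5 for SST and PV, 10 for SST and VIP and 12 for PV and VIP. They were 1, 5 and 4 with DESeq2, and 0, 4 and 2 without the filter on low counts. The counts over the whole table fell as well. The main fit called 3344, 14633 and 19824 of 40338 regions, and DESeq2 called 430, 7455 and 11614. Without the filter 0, 7019 and 10868 of 310118 regions were called. Near the 6 genes the counts were 5, 10 and 12 with RLE factors, and 4, 10 and 12 with the replicate number as a block. The whole-table counts with these were 3366, 14579 and 19857, and 2557, 13992 and 19159. Leaving out each sample in turn gave 1 to 8, 7 to 12 and 5 to 16 calls, with the sample left alone assumed to vary like the other groups. Within 100 kb the counts were 7, 16 and 22 of 49 tested regions. Of 27 calls in the regions described, 27 were kept with RLE factors, 26 with the block (all but the SST to PV call upstream of *Cort*), 10 with DESeq2 (which gave some regions no adjusted p), 6 without the filter and 8 with each sample left out in turn. The 5 calls kept under every one of these settings were SST over VIP at the *Sst* start and at both *Sstr1* regions by the start, VIP over SST downstream of *Sstr2*, and VIP over PV at the *Sstr2* start. No call changed direction. Differences that were not called changed direction as samples were left out in turn. SST against PV ranged from -0.64 to 0.19 at the *Dffa* promoter near *Cort* and from -2.32 to 0.10 at 28922 bases downstream of *Sstr2*. SST against VIP ranged from -0.075 to 0.33 at the *Sstr3* region at 78531776, from -0.41 to 0.96 at *Thbd*, from -0.29 to 2.13 at 28922 bases downstream of *Sstr2* and from -0.50 to 4.02 at 1901 bases upstream of *Cort*. PV against VIP ranged from -3.65 to 1.13 upstream of *Sst*, where it was -0.092 without the filter, and from -0.27 to 0.87 upstream of *Sstr1*. The *Sst* level in SST-type nuclei was 105.4 per 10000 UMIs with a gate at 1 marker UMI. The *Sstr2* ratio of layer 5 to layer 2-3 was 14.1 with a gate at 3 marker UMIs and 21.0 in the second library set alone, both chosen after seeing the data. Without barcode names shared between libraries *Sst* stood at 126.6 and *Cort* at 1.48 (in SST-type and Sst-gated nuclei). The causes of these changes were not tested. *Sstr4*, and *Cort* and *Sstr1* in the smaller classes, are limited by counts of 0 to 9 UMIs.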

Other observations

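A large part of the UMIs of each gene was in nuclei that no gate took, 35.8% of the *Sst* UMIs, 35.00% for *Cort*, 49.9% for *Sstr1*, 44.3% for *Sstr2* and 47.6% for *Sstr3*. The 17749 nuclei without a gate had 3.94 *Sst* UMIs per 10000 (3.83 to 4.05), close to the 3.60 of sparse barcodes. The highest nucleus without a gate held 101 *Sst* UMIs. GABAergic nuclei that fell in none of the 4 interneuron classes had 0.597 *Cort* UMIs per 10000 (0.435 to 0.798, 45 UMIs), a level between PV and Sst-gated nuclei.

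The level of *Sstr2* differed between the 2 library sets in some classes. GABAergic nuclei had 0.277 per 10000 in the first and 0.0777 in the second set, from 24 and 9 UMIs. Layer 2-3 nuclei had 0.273 and 0.0410, from 16 and 3 UMIs. Sparse barcodes had 0.478 and 0.287 and excitatory nuclei as a whole 0.684 and 0.561, while astrocytes had the opposite order (0.126 and 0.183, 7 UMIs in each set). No label ties a set to an animal, so animal and library preparation cannot be told apart.

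Over 13 classes of nuclei, the genes whose log2 levels followed each member most closely were ranked by Pearson's r as a description, among about 11322 genes. For *Sst* these were *Lypd6* (r = 0.80), *Cgref1* (0.73), *Rab3b* (0.73), *Npy* (0.73) and *Rlim* (0.70), of which *Npy* was highest in LAMP5 nuclei. For *Cort* they were *Gjd2* (0.90), which encodes the gap junction protein connexin 36, *Kcnmb2* (0.90), *Serpini1* (0.89), *Akain1* (0.86) and *Iars* (0.86). For *Sstr1* the closest was *Spon1* (0.94), highest in OPCs like *Sstr1*, followed by *Smc2*, *Mob4*, *Pnpt1* and *Mrpl32* (0.81 to 0.83). *Sstr2* was followed by *Sh3glb2* (0.88), *Fras1* (0.87), *Scn4b* (0.87) and *Ccdc120* (0.87), with *Fras1* and *Scn4b* highest in layer 5. *Sstr3* was followed by *Rgs14* (0.92), *Robo3* (0.91), *Ankrd33b* (0.91), *Egr2* (0.89) and *Fhl2* (0.89), and all but *Egr2* were highest in layer 2-3. The points share libraries and depth, and no p is given.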
